A study of Mus musculus with 6 samples.

Results

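The genes described here are the mannosidases and glycosyltransferases of the Golgi apparatus that trim and branch N-glycans, the sugar chains attached to asparagine residues of secreted and membrane proteins. They are Man1a, Man1a2, Man2a1, Man2a2, Mgat1, Mgat2, Mgat4a, Mgat4b, Mgat5 and Fut8, 10 of the 22085 genes measured. Each was found by its deposited gene symbol and had 1 probe set. The members were chosen by the difference in log2 signal between the groups of these arrays: the rise of Man2a1 was known, and the other genes were added as its neighbours in the pathway. The differences of the members between the groups are therefore given as a description, with their errors and without a p-value.

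Gene expression was measured in MA-10 cells, a line derived from a mouse Leydig cell tumour. In the siRNA MEF2 group (3 samples) the cells received small interfering RNA against both MEF2A and MEF2D for 48 h before RNA was taken, and in the siRNA control group (3 samples) they received a scrambled one for the same time. Both groups were grown in medium with horse serum, with no other treatment in the labels. Both factors were targeted together in 1 tumour line, so neither their separate effects nor normal Leydig cells can be read from these arrays. The labels do not say whether the samples came from separate cultures, so a p-value here speaks only of how these samples vary, and that variation may be technical. The RNA is that of all cells of a dish, in which fewer cells of a type and less RNA per cell cannot be told apart.

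N-glycans reach the Golgi as chains rich in mannose. The class I mannosidases, encoded by Man1a and Man1a2, trim them, and the Mgat1 enzyme adds the first branch sugar, N-acetylglucosamine. Only then can alpha-mannosidase II, encoded by Man2a1 and its paralogue Man2a2, remove the last outer mannoses, which opens the site for Mgat2 and the second branch. The enzymes of Mgat4a, Mgat4b and Mgat5 add further branches, and Fut8 adds the core fucose. The branched chains are then extended with galactose and capped with sialic acid, and galectins bind them at the cell surface. In Leydig cells the receptor for luteinizing hormone is itself an N-glycosylated membrane protein.

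Both targeted transcripts were lower in siRNA MEF2. Mef2a read 9.80, 10.12 and 10.10 on the log2 scale in siRNA MEF2 samples 1 to 3, against 10.80, 10.80 and 10.78 in siRNA control samples 1 to 3, and Mef2d averaged 10.79 ± 0.17 in siRNA MEF2 and 11.25 ± 0.05 in siRNA control (SD, n = 3 each). The limma adjusted p was 8.43e-05 for Mef2a and 0.00205 for Mef2d. Of 9 measured Leydig cell markers 8 lay above the median of the negative control probe sets on all 6 arrays, among them Star, Cyp11a1 and Lhcgr, while Hsd3b1 did not and Insl3 was not analysed here. Of the markers of other cell types, 7 of 8 for macrophages, 5 of 8 for germ cells, 5 of 8 for endothelial cells and 4 of 8 for fibroblasts or peritubular cells lay below it on every array. The macrophage marker Cd68 and the germ cell markers Ddx4 and Prm2 lay above it on all 6 arrays. So did Cdh5 and Vwf for endothelial cells and Col1a1, Col3a1 and Acta2 for fibroblasts or peritubular cells. Of 8 Sertoli cell markers 5 lay above it on all 6 arrays (Sox9, Dhh, Cldn11, Rhox5 and Gata1), and the mean log2 signal of the 8 ranged from 8.22 to 8.27 over the siRNA MEF2 arrays and from 8.20 to 8.27 over the siRNA control arrays. The mean of the Leydig cell markers was 10.71 to 10.75 in siRNA MEF2 and 10.78 to 10.91 in siRNA control, with 3 called higher and 3 lower. That of the germ cell markers was 6.36 to 6.42 in siRNA MEF2 and 6.27 to 6.33 in siRNA control, and that of the fibroblast or peritubular cell markers 6.88 to 6.92 in siRNA MEF2 and 6.76 to 6.82 in siRNA control, each with 2 called higher and 0 lower. What part these markers have in the differences was not tested.

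Man2a1 and Mgat2 had the largest rise and the largest fall of the 10 members. The windows in front of these genes are shown because MEF2 is a DNA-binding factor with a known consensus. They are the 250 bases before the annotated start in RefSeq on GRCm38.p6, on the plus strand, chr17:64601399-64601648 for Man2a1 and chr12:69183908-69184157 for Mgat2. Capitals mark matches on either strand to the GC box, whose letters are GGGCGG, and to the CCAAT box, spelled as its name.
Man2a1: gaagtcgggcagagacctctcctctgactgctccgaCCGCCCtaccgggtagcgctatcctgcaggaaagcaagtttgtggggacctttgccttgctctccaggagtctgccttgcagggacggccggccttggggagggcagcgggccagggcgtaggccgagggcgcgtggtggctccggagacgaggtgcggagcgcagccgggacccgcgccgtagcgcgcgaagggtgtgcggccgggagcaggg
Mgat2: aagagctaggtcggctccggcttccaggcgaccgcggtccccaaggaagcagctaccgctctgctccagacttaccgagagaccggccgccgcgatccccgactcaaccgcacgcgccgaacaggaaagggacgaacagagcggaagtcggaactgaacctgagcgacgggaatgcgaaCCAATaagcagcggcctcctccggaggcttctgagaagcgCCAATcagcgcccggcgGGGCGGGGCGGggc
The Man2a1 window was 70.4% G or C and held 1 GC box, 209 to 214 bases before the start, and no CCAAT box. The Mgat2 window was 66.8% G or C and held CCAAT boxes 27 to 31 and 67 to 71 bases before the start, and 2 GC boxes that share 1 base, 4 to 9 and 9 to 14 bases before it. The letters of the MEF2 consensus and of the Golgi stress response element, ACGTGGC, were searched on both strands in the 300 bases from 250 before to 50 after the start. Neither was found in the 13 such windows of the 7 members in the RefSeq table (Fut8, Man1a, Man2a1, Mgat1, Mgat2, Mgat4a and Mgat5), which says only that these letters are not there. Of all 32851 windows 3.19% held the MEF2 consensus and 2.58% the stress element. The GC box stood in at least 1 window of each of the 7 members, 9 of the 13 windows, against 35.7% of all windows, and a CCAAT box in 5 of the 13 windows, against 37.4%. Man1a2, Man2a2 and Mgat4b were not in that table.

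At the last mannose-trimming step, Man2a1 was higher and its paralogue Man2a2 was nearly level. Man2a1 (probe set 10446376) read 12.23, 12.31 and 12.23 in siRNA MEF2 samples 1 to 3, against 11.30, 11.44 and 11.30 in siRNA control samples 1 to 3. Every siRNA MEF2 sample lay above every control sample, by a gap far wider than the spread within either group. The means were 12.26 ± 0.05 in siRNA MEF2 and 11.35 ± 0.08 in siRNA control (SD, n = 3 each), a difference of 0.91 on the log2 scale (SE 0.06, 95% interval 0.78 to 1.04), or 1.88-fold. This was the third largest rise among the 22085 genes (rank 3). Over the alternatives the difference stayed between 0.86 and 0.99. The siRNA MEF2 samples lay within 0.08 of each other in Man2a1, while the same samples spanned 0.32 in Mef2a and 0.32 in Mef2d.

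Man2a2, which encodes the other Golgi alpha-mannosidase II (probe set 10564909), read 10.16, 10.12 and 10.14 in siRNA MEF2 samples and 10.17, 10.18 and 10.14 in siRNA control samples. The groups overlapped and differed by -0.02 (SE 0.05, 95% interval -0.14 to 0.09). The sign turned to 0.06 after quantile normalization and after cyclic loess. Taken on each array, so that the scale of the array cancels, the change of Man2a1 exceeded that of Man2a2 by 0.93 (SE 0.05), and by 0.81 to 1.06 between single arrays of the groups.

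**Figure D1:**
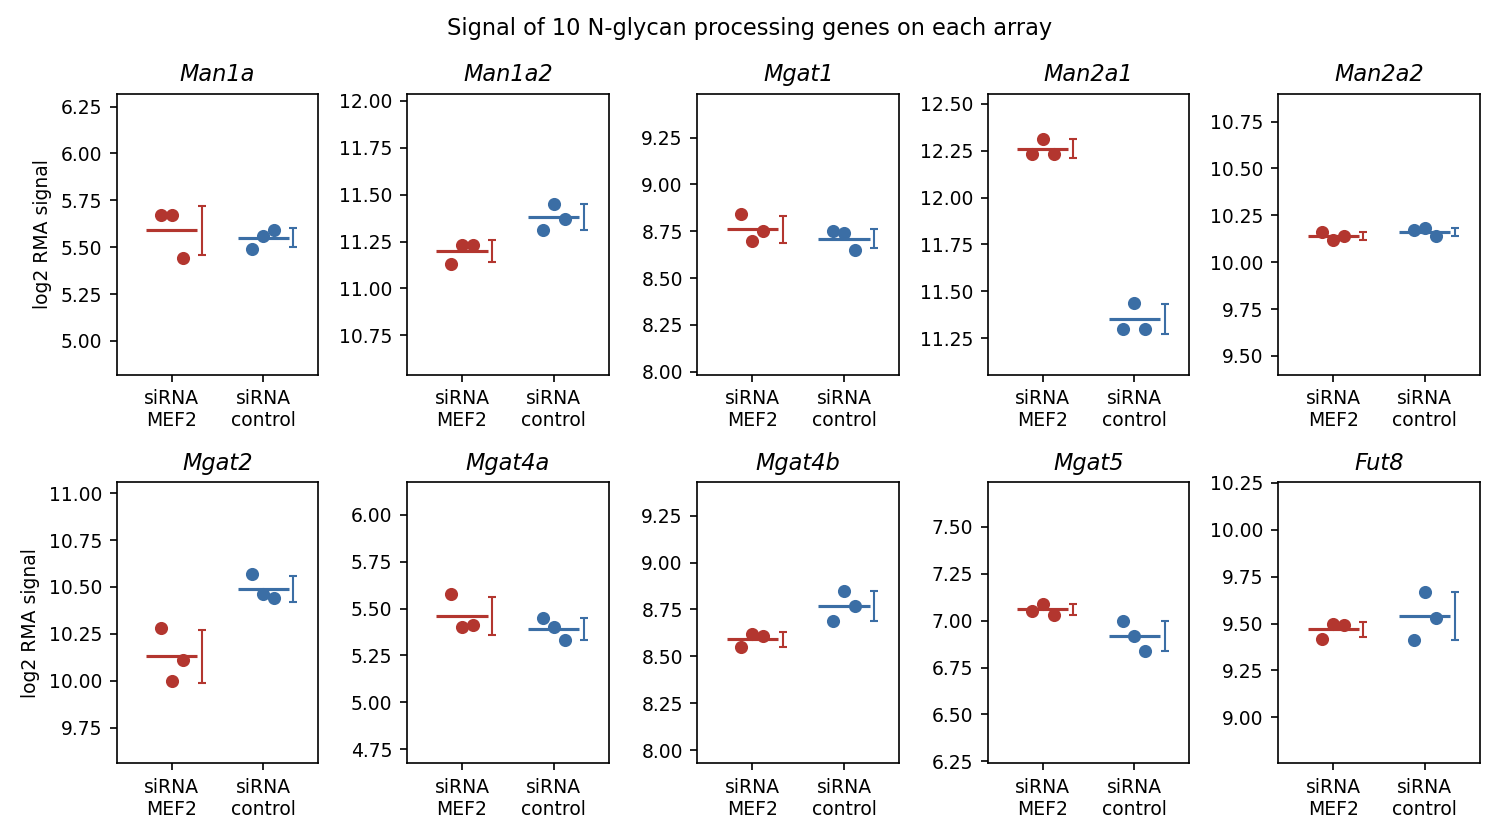
Log2 RMA signal (y axis) of the 10 genes on each of 3 siRNA MEF2 arrays (red, left) and 3 siRNA control arrays (blue, right), with group means as horizontal lines and SD as bars; every panel spans the same range of log2 signal. Man2a1 stands 0.91 higher in siRNA MEF2, Mgat2 0.36 lower, and in 5 panels the groups overlap.

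Of the enzymes that act before Man2a1, the class I mannosidase gene Man1a2 was lower in every siRNA MEF2 sample. It read 11.13, 11.23 and 11.23 in siRNA MEF2 samples, against 11.31, 11.45 and 11.37 in siRNA control samples. The groups did not overlap, yet the difference of -0.18 (SE 0.06, 95% interval -0.31 to -0.05) did not pass the adjusted threshold over all genes. It passed in 5 of 15 alternatives, median centring among them, and shrank to -0.09 after quantile normalization.

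Man1a, its paralogue, read 5.67, 5.67 and 5.44 in siRNA MEF2 samples and 5.49, 5.56 and 5.59 in siRNA control samples, below the median of the negative control probe sets on all 6 arrays. The groups overlapped (difference 0.04, SE 0.07), and the sign turned under each of the 3 other scalings (-0.04 to -0.01). Mgat1, whose enzyme starts branching, read 8.84, 8.70 and 8.75 in siRNA MEF2 samples and 8.75, 8.74 and 8.65 in siRNA control samples. These groups overlapped as well, with a difference of 0.05 (SE 0.06, 95% interval -0.08 to 0.18) that became -0.00 after median centring.

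The transcript for the step that follows Man2a1 went the other way. These arrays measure RNA, and neither enzymes nor glycans were measured. Mgat2, whose enzyme adds the second branch to the product of alpha-mannosidase II (probe set 10396074), read 10.284, 10.003 and 10.112 in siRNA MEF2 samples, against 10.565, 10.460 and 10.441 in siRNA control samples. All siRNA MEF2 samples lay below all control samples, with sample 1 nearest to them. The means were 10.13 ± 0.14 in siRNA MEF2 and 10.49 ± 0.07 in siRNA control (SD, n = 3 each), and Mgat2 was lower by 0.36 in siRNA MEF2 (difference -0.36, SE 0.07, 95% interval -0.52 to -0.20), or 1.28-fold. Over the alternatives the difference ranged from -0.43 to -0.27. On the arrays the change of Man2a1 exceeded that of Mgat2 by 1.27 (SE 0.13).

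Among the enzymes of the outer branches, Mgat4b was lower in every siRNA MEF2 sample, with 8.55, 8.62 and 8.61 against 8.69, 8.85 and 8.77 in siRNA control samples. The groups were separate but close, and the difference of -0.17 (SE 0.06, 95% interval -0.31 to -0.04) did not pass the adjusted threshold, though it did in 4 of 15 alternatives, 1 of them the fit without siRNA control replicate 1. Its paralogue Mgat4a read 5.58, 5.40 and 5.41 in siRNA MEF2 samples and 5.45, 5.40 and 5.33 in siRNA control samples. These groups overlapped, at a difference of 0.07 (SE 0.07) that became -0.00 after quantile normalization. Mgat5, whose enzyme makes the branch that galectins favour, read 7.045, 7.088 and 7.032 in siRNA MEF2 samples and 7.003, 6.918 and 6.836 in siRNA control samples. The groups lay apart by a narrow gap (difference 0.14, SE 0.06), which shrank to between 0.03 and 0.09 under the other scalings. Mgat4a and Mgat5 lay below the negative control medians on all 6 arrays, so no fold is given for them or for Man1a.

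Fut8, which encodes the core fucosyltransferase, read 9.42, 9.50 and 9.49 in siRNA MEF2 samples and 9.41, 9.67 and 9.53 in siRNA control samples. The control samples spread more widely and enclosed the siRNA MEF2 samples. The difference was -0.06 (SE 0.07, 95% interval -0.21 to 0.09), and it turned to 0.03 after quantile normalization and to 0.00 without siRNA control replicate 2.

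Across the 10 members the fit over all genes called Man2a1 higher and Mgat2 lower and left 8 uncalled, at an adjusted p under 0.05. Over all 22085 genes 20.7% were called, 9.04% higher and 11.7% lower. The groups did not overlap for 2 members that were higher and 3 that were lower, against 22.8% and 18.0% of all genes, or 40.8% in either direction. Since this contrast was used to choose the group, nothing is read from these shares. The median difference was 0.01 for the members and 0.04 for all genes, and the median size of a difference, whatever its sign, was 0.10 for the members and 0.11 for all genes.

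**Figure D2:**
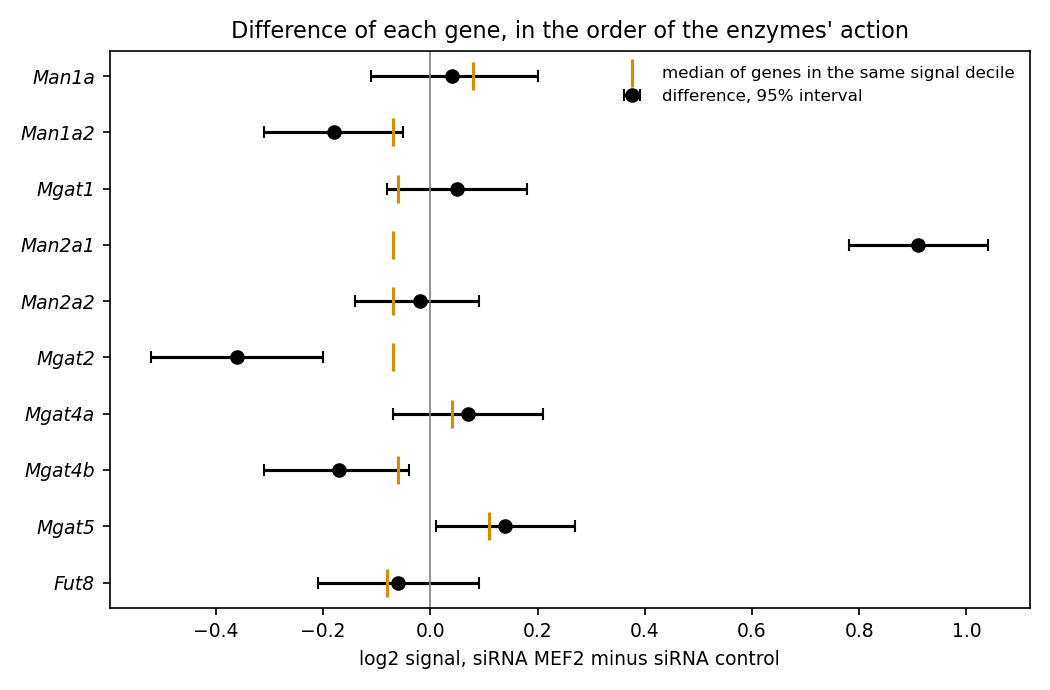
Difference in log2 signal, siRNA MEF2 minus siRNA control (x axis), of each gene with its 95% interval from limma (black), beside the median difference of all genes in the same signal decile (orange). Man2a1 lies at 0.91, far to the right of the median of its decile (-0.07), and Mgat2 at -0.36 lies to the left of it.

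The sign of small differences mostly went with the signal. All 3 members below the negative control medians differed by more than 0 (0.04 to 0.14), and of the 7 members above them 5 differed by less than 0. Genes sorted into deciles of mean signal showed the same on these arrays, with median differences of 0.04 to 0.11 in the lower 5 deciles and -0.08 to -0.06 in the upper 4. Mgat5 at 0.14 stood beside a median of 0.11 for its decile, and Fut8 at -0.06 beside -0.08. Mgat1 went the other way, at 0.05 beside -0.06, and Man2a1 at 0.91 and Mgat2 at -0.36 each stood beside -0.07. The signs of the dim genes Man1a and Mgat4a turned under at least 1 other scaling. So did those of the brighter Man2a2, Mgat1 and Fut8, while the sign of the dim Mgat5 did not. The medians of the negative controls were 7.16 to 7.53 on the siRNA MEF2 arrays and 7.28 to 7.35 on the siRNA control arrays. What part the signal level has in the small differences was not tested.

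**Figure D3:**
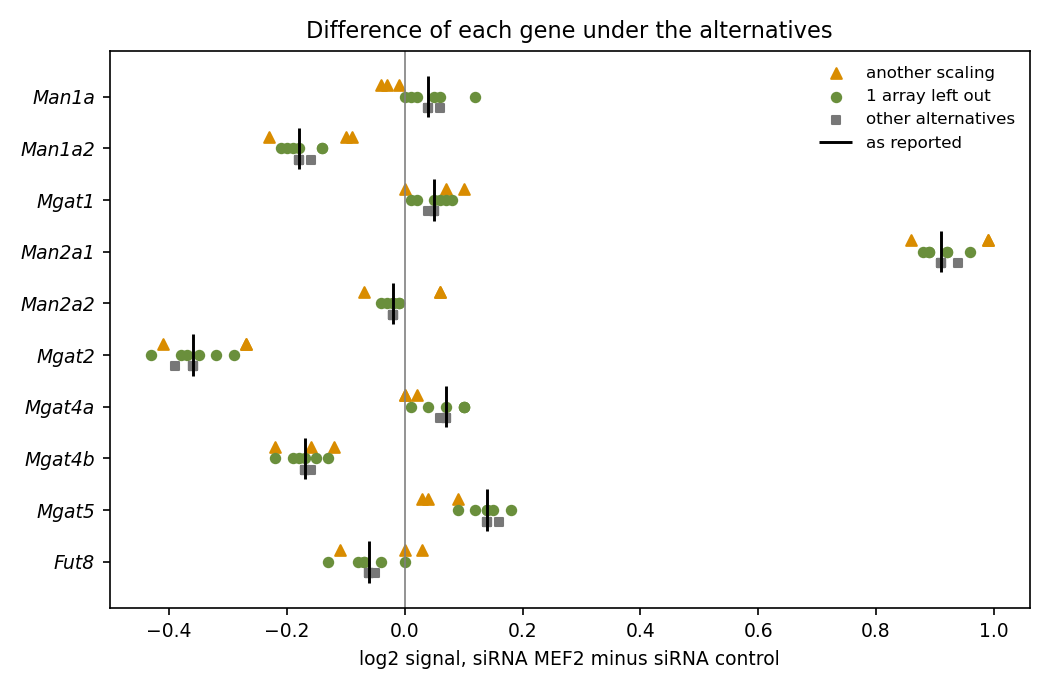
Difference in log2 signal, siRNA MEF2 minus siRNA control (x axis), of each gene as reported (black line), under 3 other scalings (triangles), with 1 array left out (circles) and under the other alternatives (squares). Man2a1 stays between 0.86 and 0.99 and Mgat2 between -0.43 and -0.27, while Man1a, Man2a2, Mgat1, Mgat4a and Fut8 touch or cross 0.

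The genes around this group in the N-glycan pathway were lower more often than higher. Of 135 measured genes in 10 lists of the pathway, which leave out the 10 members, 34 were called lower and 4 higher. These were 25.2% and 2.96%, against 11.7% and 9.04% of all genes. Called or not, 87 of the 135 differed by less than 0 and 48 (35.6%) by more. Of all genes 60.4% differed by more than 0, but the median difference was -0.08 to -0.06 in the upper 4 signal deciles. What part the signal level has in these signs was not tested. In the counts of lists below, fell and rose mean called lower and called higher. Most of the 135 are bright genes. In the upper 4 signal deciles 32 of 110 were called lower, or 29.1%, and 1 was called higher. Of all genes in these deciles 24.2% were called lower and 5.23% higher. The counts of single lists below stand beside these shares, and none is read as a trait of its step. The counts moved with the scaling, to 49 lower and 1 higher after median centring, 15 lower and 7 higher after quantile normalization and 18 lower and 6 higher after cyclic loess. With siRNA MEF2 replicate 2 left out 17 were lower, with siRNA control replicate 2 left out 17, and with siRNA control replicate 3 left out 21. The genes called higher were Mogs, Mgat5b and, named after their values were seen, Uggt2 and B3gnt8. Uggt2 and B3gnt8 lay below the negative control medians on all 6 arrays, at differences of 0.22 and 0.20 beside a median of 0.11 for their signal decile.

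Genes that supply the sugar donors were called lower or not called. Slc35a3, which encodes a Golgi transporter for UDP-N-acetylglucosamine, the donor of all branching enzymes, read 9.30, 9.31 and 9.29 in siRNA MEF2 samples, against 9.86, 9.87 and 9.82 in siRNA control samples. The samples of each group lay almost on top of one another. Slc35a3 was 1.47-fold lower (log2 difference -0.55, SE 0.05; limma adjusted p = 6.45e-05). Gfpt2 and Gfpt1, whose enzymes open the pathway to this donor, fell by 0.31 and 0.19 (limma adjusted p = 0.0126 and 0.0313), and Nans, a sialic acid synthase gene, fell by 0.28 (limma adjusted p = 0.0121). Of 23 measured genes of nucleotide sugar synthesis and transport 5 were called lower and 0 higher (median difference -0.13). After median centring 11 were called lower, and after quantile normalization 2 lower and 1 higher. Over all genes 11.7% were called lower, and 24.2% in the upper 4 signal deciles. Gfpt1 lost its call after quantile normalization and cyclic loess and without any 1 of siRNA MEF2 replicates 2 and 3 and siRNA control replicates 2 and 3, Gfpt2 without siRNA control replicate 2, and Nans after quantile normalization, with adjusted p up to 0.223, 0.0558 and 0.0861.

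Among the genes for enzymes that extend and cap the branches, 5 of 15 fell and 1 rose, with a median of -0.00. The sialyltransferase genes St3gal4 and St3gal6 fell 1.32-fold and 1.24-fold (limma adjusted p = 0.000619 and 0.00439). St3gal4 read 10.31, 10.31 and 10.32 in siRNA MEF2 samples, against 10.65, 10.73 and 10.76 in siRNA control samples, so that the groups were well apart. A dimmer probe set of St3gal4 differed by -0.14. B3gnt2, a poly-N-acetyllactosamine synthase gene, fell 1.24-fold and the galactosyltransferase gene B4galt3 1.22-fold (limma adjusted p = 0.00701 and 0.0074). B4galt3 lost its call after quantile normalization (adjusted p = 0.0502). Among 5 further Golgi trimming and branching genes only Mgat5b was called, higher by 0.19 (limma adjusted p = 0.0318), a call lost under each of the other scalings.

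In the endoplasmic reticulum, where the chain is built, transferred and first trimmed, the changes were small apart from a few genes. Edem1, which steers misfolded glycoproteins to degradation, averaged 9.57 ± 0.16 in siRNA MEF2 and 10.28 ± 0.03 in siRNA control (SD, n = 3 each; limma adjusted p = 0.000124). Mcfd2, a cofactor of the lectin that carries glycoproteins out of the reticulum, fell 1.31-fold (limma adjusted p = 0.000793). Mogs, the first glucosidase to trim the chain, rose 1.24-fold (limma adjusted p = 0.0142, or 0.0582 at most when 1 array was left out), and the chaperone gene Calr fell 1.17-fold (limma adjusted p = 0.0184). Calr lost its call after quantile normalization, after cyclic loess and without any 1 of siRNA MEF2 replicate 2 and siRNA control replicates 1, 2 and 3 (adjusted p up to 0.0815). Of the 14 genes of this list 3 fell and 2 rose (median -0.07).

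Of 23 genes that assemble the precursor on dolichol 6 fell and 0 rose (median -0.07), but 2 fell and 4 rose after quantile normalization, and 3 fell and 3 rose after cyclic loess. Dpm2, a subunit of dolichol-phosphate-mannose synthase, fell 1.28-fold (limma adjusted p = 0.00166) and passed in each of the 15 alternatives. The mannosyltransferase gene Alg11 fell 1.23-fold and lost its call after quantile normalization (limma adjusted p = 0.00889 and 0.077). Alg13 and the glucosyltransferase gene Alg8 fell 1.19-fold and 1.15-fold and each lost its call when any 1 of 4 arrays was left out, siRNA MEF2 replicate 2 and siRNA control replicates 2 and 3 for both, with siRNA MEF2 replicate 1 for Alg13 and siRNA control replicate 1 for Alg8. Alg8 also lost it after quantile normalization and cyclic loess. Of 12 oligosaccharyltransferase genes 3 fell, Magt1, Stt3b and Ostc, each 1.17-fold (limma adjusted p from 0.0158 to 0.0273), and none of the 12 was called after quantile normalization or cyclic loess. The other probe set of Stt3b differed by 0.13.

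Of 14 genes of glycan breakdown 6 fell and 0 rose, or 3 and 0 after quantile normalization. Fuca2, a fucosidase gene, read 8.39, 8.47 and 8.42 in siRNA MEF2 samples, against 9.07, 9.16 and 9.04 in siRNA control samples. It fell 1.59-fold, with the groups far apart (limma adjusted p = 3.48e-05). Hexa, a hexosaminidase gene, fell 1.21-fold and Aga, which cleaves the link to asparagine, 1.20-fold (limma adjusted p = 0.0132 and 0.00943). Hexa lost its call without siRNA MEF2 replicate 2 or siRNA control replicate 2, and Aga after quantile normalization and cyclic loess (adjusted p up to 0.0542 and 0.0573). The mannose 6-phosphate tag sorts lysosomal enzymes, and among its 5 genes M6pr, Nagpa and Gnptab fell 1.22-fold, 1.17-fold and 1.13-fold (limma adjusted p from 0.0181 to 0.0499), and none was called after quantile normalization or cyclic loess. Golph3, which retains glycosyltransferases in the Golgi, was the 1 called gene of 16 for Golgi tethers and homeostasis, 1.37-fold lower (limma adjusted p = 0.00243), while its other probe set differed by 0.23 in the opposite direction. Of 8 galectin genes Lgals3 fell 1.68-fold, to 10.36 ± 0.08 in siRNA MEF2 against 11.11 ± 0.11 in siRNA control (SD, n = 3 each; limma adjusted p = 5.02e-05), and Lgals9 fell 1.26-fold (limma adjusted p = 0.0141, and up to 0.0684 over the alternatives).

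**Figure D4:**
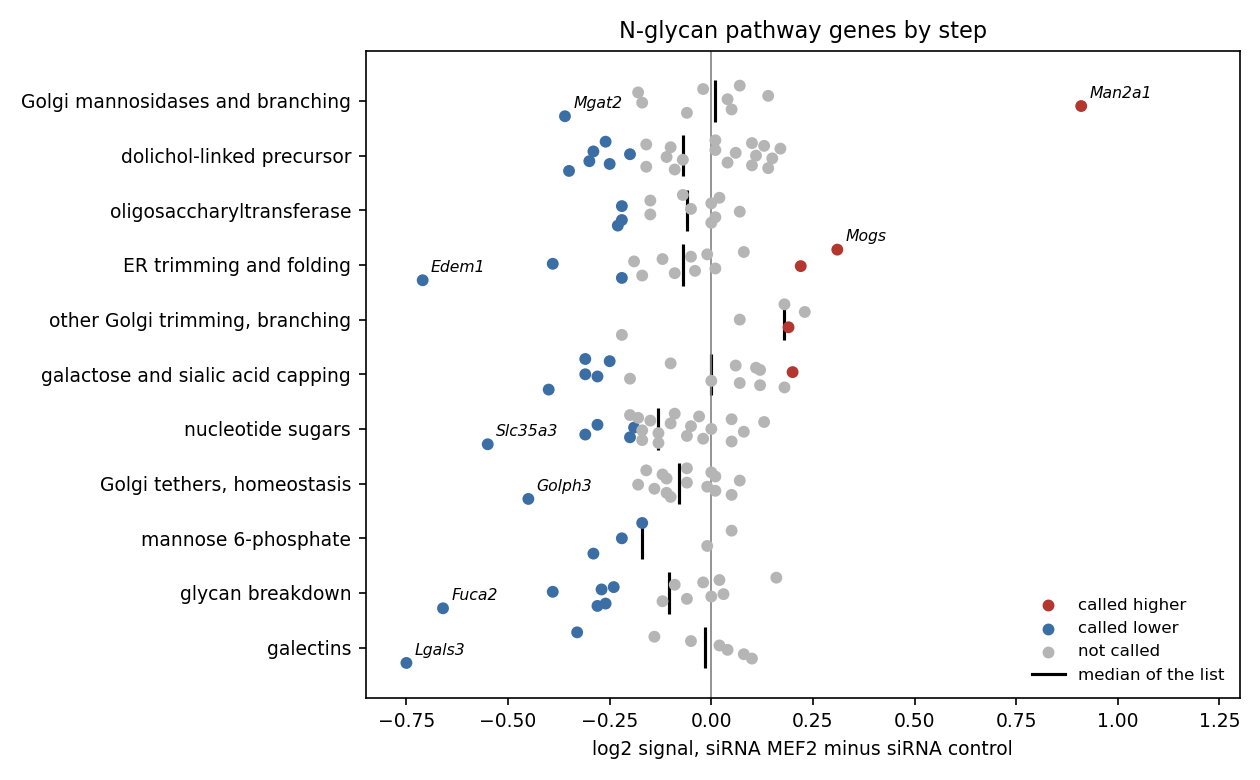
Difference in log2 signal, siRNA MEF2 minus siRNA control (x axis), of single genes (points) by pathway step (rows), coloured by the call in the fit over all genes, with the median of each list as a black line. Man2a1 is alone on the far right at 0.91, while Lgals3, Edem1, Fuca2 and Slc35a3 lie farthest to the left, at -0.75 to -0.55.

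The deposited annotation placed 9 of the 10 members in the Golgi and gave no such term for Man2a2. Among all 723 genes with a Golgi term, 60 were called higher and 127 lower, and the median difference was -0.01. Of all 22085 genes 9.04% were called higher and 11.7% lower, and in the upper 4 signal deciles 24.2% were called lower. What part the signal level has in the Golgi counts was not tested. Man2a1 had the largest rise of the 723. The next, named after their values were seen, were Sulf2, a sulfatase gene, at 0.61 and Chst2, a sulfotransferase gene, at 0.54 (limma adjusted p = 0.000231 and 0.00432). The largest falls were those of Cpd, a carboxypeptidase gene, at -0.92, Rnf128, a ubiquitin ligase gene, at -0.84 and Slc9a7, a sodium-proton exchanger gene, at -0.75 (limma adjusted p from 9.01e-06 to 0.000152). Mgat2 ranked 682 of 723 from the largest rise.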

How the data were processed

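Expression was measured in 3 siRNA MEF2 and 3 siRNA control samples on 1-colour arrays. The values deposited by the authors are log2 signals, summarised per gene by RMA per the file headers. RMA and Partek are named, with no version, in the submitters' processing notes. The array design is not given in the sources used here. RMA scales the arrays to each other, so a shift shared by most genes cannot be measured. The deposited values were still not on 1 distribution. Their gene medians were 7.86 to 7.89 on the siRNA MEF2 arrays and 7.82 to 7.83 on the siRNA control arrays. The annotated table and the series matrix held the same 35557 probe sets, with a largest difference of 0.0.

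Probe sets were named from deposited symbols and accessions through RefSeq gene and promoter tables of GRCm38.p6. The 25523 named probe sets covered 22085 genes; 2 probe sets with several symbols were left out. Of several probe sets of a gene, the brightest by its mean on the 6 arrays was used. The array annotation quotes another build, so its gene coordinates are not given. Those of the printed windows are from RefSeq on GRCm38.p6. The log2 values of siRNA MEF2 were set against those of siRNA control with limma 3.58.1 (lmFit, eBayes; R 4.3.3). The tests were two-sided and had no covariates, and p-values were adjusted by Benjamini-Hochberg for 22085 genes. SE and 95% intervals of single genes are limma's, and folds are back-transformed log2 differences. Where the change of a gene is set against that of another, the SE comes from the variance of their per-array differences within each group. The fit was tested on simulated data. Alternatives were median centring, quantile normalization, cyclic loess, genes above the median signal, a variance trend with robust estimation, array weights, the mean over probe sets, the series matrix, the replicate number as a block, and leaving out each array.

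The members and the 10 pathway lists were chosen with earlier results of these data known. Of each pathway list up to 4 called genes with the smallest p were named; others are marked, and 1 is not reported here. Of the 136 listed genes Tsta3 was not matched and is not analysed here. The main fit did not pair the samples by replicate number, and the labels do not say whether the numbers mark pairs. Deviations of same-numbered samples had weak positive correlations of 0.113, 0.076 and 0.096. A fit with the replicate number as a block is among the alternatives. The negative control medians, over 5222 probe sets, serve as a guide to dim signals and mark no limit of detection. The precision is limited by the number of arrays.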

Additional observations from a re-analysis of the deposited data

How the results depend on the processing

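Man2a1 and Mgat2 kept their direction and their call in each of 15 alternatives. The members were chosen by this same contrast, so their calls are a description only. The series matrix and the mean over probe sets left the members' calls as reported. They could not move a member's difference, since the matrix held the same values and each member had 1 probe set. The fits over genes above the median signal, with a variance trend and with the replicate block also leave the size of a difference unchanged. They bear only on the calls. Members called lower numbered 3 after median centring, 3 over genes above the median signal, 3 with array weights, 2 with a variance trend and robust estimation and 2 with the replicate block, and 1 to 2 when 1 array was left out, the added genes being Man1a2 and Mgat4b; 1 was called higher throughout. Over all genes 1997 were called higher and 2580 lower. Higher calls numbered 826 after median centring (with 3589 lower), 1171 after cyclic loess (with 1924 lower) and 961 over genes above the median signal (with 2776 lower), and lower calls 1700 after quantile normalization (with 1376 higher). Leaving out 1 array gave 814 to 2077 higher and 1601 to 2611 lower calls. Of the wider pathway genes 4 were called higher and 34 lower. Higher calls numbered 1 after median centring (with 49 lower), 7 after quantile normalization and 2 over genes above the median signal, and lower calls 15 after quantile normalization and 18 after cyclic loess. Leaving out 1 array gave 1 to 4 higher and 17 to 42 lower calls. With the replicate block 2479 genes were called higher and 2837 lower, and 6 and 36 of the wider pathway. The causes of these shifts were not tested. Signals near the negative control medians limit what can be said of Man1a, Mgat4a and Mgat5.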
